A study of Arabidopsis thaliana with 2 samples.

Results

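The pseudo-response regulators of the Arabidopsis circadian clock are 5 genes, PRR9, PRR7, PRR5, PRR3 and TOC1 (also called PRR1). They were taken by locus identifier from the 33557 loci of the deposited expression table, and all 5 were found. The table holds leaf RNA-seq of Arabidopsis thaliana plants of the Columbia ecotype, 2 weeks old, kept in chambers at 23 °C by day and night with 16 h of light. It has 1 library from wild type and 1 from Atclb1-1, a line homozygous for a T-DNA insertion in AtCLB (AT3G61050, a calcium-dependent lipid-binding protein) that the labels describe as a loss of function mutant. How many plants went into each library, the hour of harvest and the place of the insertion were not given in the sources used here, and the question of the study was which leaf transcripts differ between the genotypes. With 1 library per genotype there is no replicate, so no spread, test or p-value accompanies any value, and genotype, hour of harvest and handling of the 2 samples cannot be told apart.

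Pseudo-response regulators resemble the receivers of bacterial two-component signalling but lack the aspartate that takes up phosphate, and they carry at the other end a CCT motif, a basic stretch through which they contact DNA. In light-grown leaves their transcripts peak one after another through the day, PRR9 after dawn, then PRR7, PRR5 and PRR3, and TOC1 towards dusk. The proteins repress the dawn genes CCA1 and LHY, so each wave passes the repression on to the next.

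Where the labelled mutant stood on that sequence of genes was read first. The earliest gene was higher, the next stood close to wild type, and the 3 later ones were lower. On the scale of log2(FPKM + 1), mutant minus wild type, the differences in order of peak time were 3.18 for PRR9, -0.23 for PRR7, -4.03 for PRR5, -4.60 for PRR3 and -2.64 for TOC1. The series therefore went down from PRR9 to PRR3 and was less negative again at TOC1. FPKM are fragment numbers made relative to transcript length and to the library's mapped total, so levels of different genes can be set side by side within a library.

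**Figure D1:**
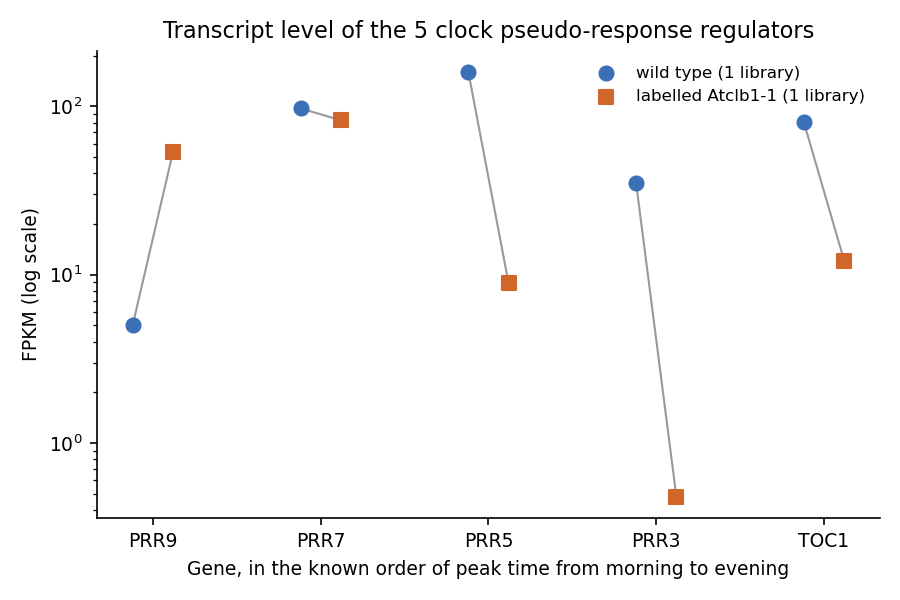
FPKM on a log axis for the 5 genes, ordered by known time of peak, with a circle for the wild type library and a square for the library labelled Atclb1-1; each point is 1 library and has no error bar. PRR9 goes up from 5.04 to 53.7 FPKM, PRR7 stays between 82.6 and 97.3 FPKM, and PRR5, PRR3 and TOC1 go down.

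The promoters of these genes are printed because the known regulators of the family act through short words in them. Sequences come from the RefSeq TAIR10.1 assembly. They are written 5′ to 3′ on the strand of the gene and cover the 250 bases before the annotated gene start of 4 members. Capitals mark the evening element AAAATATCT (bound by CCA1, LHY and the REVEILLE factors), the CCA1-binding site AAAAATCT, the G-box CACGTG (bound by light-signalling factors), and the words GATTCG and GATACG, which the evening complex factor LUX binds. Both strands were searched, so the reverse complement of a word is capitalised too.
PRR9, chr2:19232357-19232606, plus strand: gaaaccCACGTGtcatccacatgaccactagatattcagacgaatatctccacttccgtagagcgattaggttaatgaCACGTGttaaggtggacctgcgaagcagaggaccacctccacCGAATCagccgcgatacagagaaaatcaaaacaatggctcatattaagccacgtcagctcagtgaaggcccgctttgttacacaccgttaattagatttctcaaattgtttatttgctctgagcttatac
PRR7, chr5:642031-642280, minus strand: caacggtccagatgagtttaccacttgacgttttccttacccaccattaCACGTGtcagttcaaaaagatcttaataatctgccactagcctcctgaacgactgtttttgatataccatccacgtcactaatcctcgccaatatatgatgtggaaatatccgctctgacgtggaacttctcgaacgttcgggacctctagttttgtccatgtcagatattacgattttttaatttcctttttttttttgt
PRR3, chr5:24201416-24201665, minus strand: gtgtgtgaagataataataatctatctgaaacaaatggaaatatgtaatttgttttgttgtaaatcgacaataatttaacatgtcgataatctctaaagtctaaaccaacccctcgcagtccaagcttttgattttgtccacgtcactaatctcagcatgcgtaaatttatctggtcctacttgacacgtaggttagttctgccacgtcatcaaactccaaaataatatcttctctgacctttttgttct
TOC1, chr5:24674713-24674962, plus strand: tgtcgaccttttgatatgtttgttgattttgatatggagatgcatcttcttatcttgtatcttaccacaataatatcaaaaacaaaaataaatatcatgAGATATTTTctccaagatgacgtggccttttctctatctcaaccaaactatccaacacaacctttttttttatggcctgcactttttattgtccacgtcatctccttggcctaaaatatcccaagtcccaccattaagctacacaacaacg
The RefSeq model of PRR5 begins at its first coding base, so for PRR5 only stretches of 30 bases around matches are shown, and for PRR9 the same is shown for a match after the gene start.
PRR5, chr5:8358720-8358749, minus strand: tcgctAGATTTTTtctAGATATTTTctttt
PRR5, chr5:8358819-8358848, minus strand: caattctactAGATATTTTttcaaatccaa
PRR9, chr2:19232622-19232651, plus strand: tttctctgagaAGATATTTTcgtggttgtg

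The evening element lay within the 250 bases before the annotated gene start in PRR5 and TOC1, 2 of the 3 genes that were lower in the library labelled Atclb1-1. In TOC1 it began 151 bases before the gene start. In PRR5 matches began 716, 292 and 187 bases before the start of the model, the nearest beside a CCA1-binding site that began at 198. Because that model begins at the first coding base, whether these matches lie in an untranslated part or before it cannot be told. PRR3, also lower, held none of the searched words in its 250 bases. PRR9 held 2 G-boxes, which began 244 and 172 bases before its start, and PRR7 held 1 that began at 201; these are the 2 genes that were not lower by 2-fold. PRR9 also held an evening element, but in the untranslated part of its first exon, from base 27 to base 35 of the gene model.

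Set against the promoters of all 27443 nuclear protein-coding genes, the evening element was in the 250-base window of 2 of 5 members and of 2.36% of genes. The windows of PRR5, which is among these members, were placed from its first coding base. In a longer window, from 1000 bases before to 50 bases after the gene start, the evening element was in 3 of 5 members and in 7.65% of genes. The G-box was in 2 of 5 members in either window, against 6.49% and 15.9% of genes. The CCA1-binding site was in 1 member against 6.69% of genes in the shorter window and in 2 against 22.1% in the longer. For GATTCG the counts were 1 member against 7.88% and 4 against 29.4%, and for GATACG they were 0 against 4.59% and 2 against 17.7%. A match describes these letters only; neither binding nor a part in the differences was tested.

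PRR9 (AT2G46790, plus strand of chromosome 2, 19232607 to 19235179 in TAIR10.1) acts in the morning with PRR7, with which it is partly redundant. It stood at 5.04 FPKM in the wild type library and at 53.7 FPKM in the library labelled Atclb1-1, 10.7-fold higher. It was the lowest of the family in wild type and the next to highest in the library labelled Atclb1-1. Its difference ranked 258 from the top among the 18171 loci that reached 1 FPKM in at least 1 library, in the uppermost 1.42%. RefSeq lists 5 transcripts for PRR9, which is known for alternative splicing, and the deposited value is for the locus as a whole.

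PRR7 (AT5G02810, minus strand of chromosome 5, 637681 to 642030) follows PRR9 and is needed with it for a normal period. It was the gene of the family that differed least, at 97.3 FPKM in the wild type library and 82.6 FPKM in the library labelled Atclb1-1. This is 85.0% of the wild type level. The median difference over all loci was 0.21 on the log2 scale, and PRR7 lay below it at -0.23. Its value was negative in every scaling and pseudocount tried, from -0.13 with the same nuclear total in both libraries to -0.67 once medians by transcript length and GC content were removed.

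PRR5 (AT5G24470, minus strand of chromosome 5, 8356204 to 8358546) represses CCA1 and LHY around midday and helps TOC1 to accumulate in the nucleus. In wild type it was the most abundant of the 5, at 160 FPKM. In the library labelled Atclb1-1 it was at 8.88 FPKM, or 5.54% of the wild type level, 18.0-fold lower. Its difference ranked 63 from the bottom of the 18171 loci, in the lowest 0.347%.

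PRR3 (AT5G60100, minus strand of chromosome 5, 24197971 to 24201415) is known from the vasculature, where its protein shields TOC1 from the F-box protein ZTL. It stood at 34.9 FPKM in the wild type library and at 0.480 FPKM in the library labelled Atclb1-1, which is 1.38% of the wild type level and 72.6-fold lower. The difference ranked 47 from the bottom, in the lowest 0.259%. From the step that 1 fragment makes among low values, the lower value corresponds to roughly 22 to 24 fragments against 1358 to 1462 in wild type, so it was above 0 but thinly covered. Of the other 4 genes the least covered value, PRR9 in wild type, stood on roughly 147 to 159 fragments.

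Markers of vascular cells stood closer together than PRR3 did. Their 5 genes summed to 424 FPKM in the wild type library and 312 FPKM in the library labelled Atclb1-1. Of the 5, 1 was 2-fold or more lower, beside 10.8% of all loci, and none was higher. It was the xylem protease gene XCP2, at 24.0 and 10.5 FPKM. With a pseudocount of 5 no vascular marker was past 2-fold. SUC2, the sucrose transporter of phloem companion cells, was at 252 and 206 FPKM, and no vascular marker was at 0. In these bulk leaf samples fewer cells of a type and less RNA per cell cannot be told apart.

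TOC1 (AT5G61380, plus strand of chromosome 5, 24674963 to 24678550) is the dusk member, a repressor of many daytime clock genes. It was at 80.3 FPKM in the wild type library and at 12.1 FPKM in the library labelled Atclb1-1, 6.66-fold lower. Its difference was smaller than those of PRR5 and PRR3, although TOC1 peaks later than both.

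Counted together, 3 of the 5 genes were 2-fold or more lower, against a background of 10.8% of the 18171 loci. At least 2-fold higher was 1 of 5, against 17.2% of loci. At a 4-fold threshold the counts of members were still 3 and 1, against 2.64% and 5.29%. The median of the 5 differences was -2.64, beside 0.21 over all loci. Of all loci past 2-fold, 61.5% were higher in the library labelled Atclb1-1, a share that was 50.7% when the median ratio was set to 0 and 49.0% after the length and GC medians were removed.

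**Figure D2:**
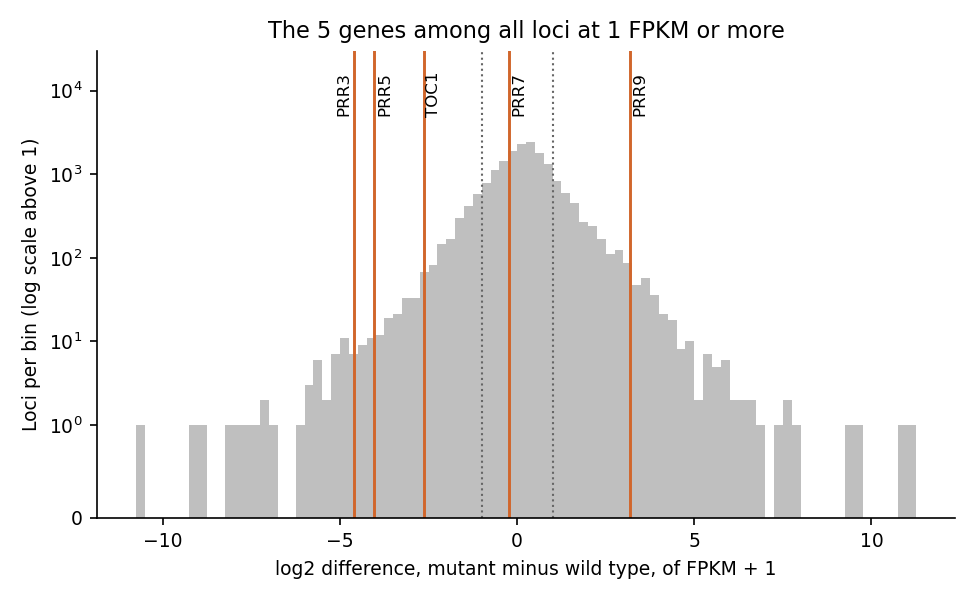
Number of loci (log axis above 1) by log2 difference of FPKM + 1, mutant minus wild type, for the 18171 loci that reached 1 FPKM in either library, with dotted lines at a 2-fold difference. The vertical lines for PRR3, PRR5 and TOC1 lie in the lower tail, PRR7 lies near the middle and PRR9 lies in the upper tail.

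The make-up of the family differed more than its total. Summed over the 5 genes the level was 378 FPKM in the wild type library and 158 FPKM in the library labelled Atclb1-1, 2.40-fold lower. PRR9 and PRR7, the morning pair, contributed 1.33% and 25.7% of the wild type sum and 34.0% and 52.4% of the sum in the library labelled Atclb1-1. PRR5 contributed 42.4% and 5.63%. TOC1 contributed 21.3% and 7.65%, and PRR3 9.24% and 0.305%. From lowest to highest the wild type order was PRR9, PRR3, TOC1, PRR7 and PRR5, and in the library labelled Atclb1-1 it was PRR3, PRR5, TOC1, PRR9 and PRR7. Without replicates no neighbouring pair in these orders can be set against its spread.

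**Figure D3:**
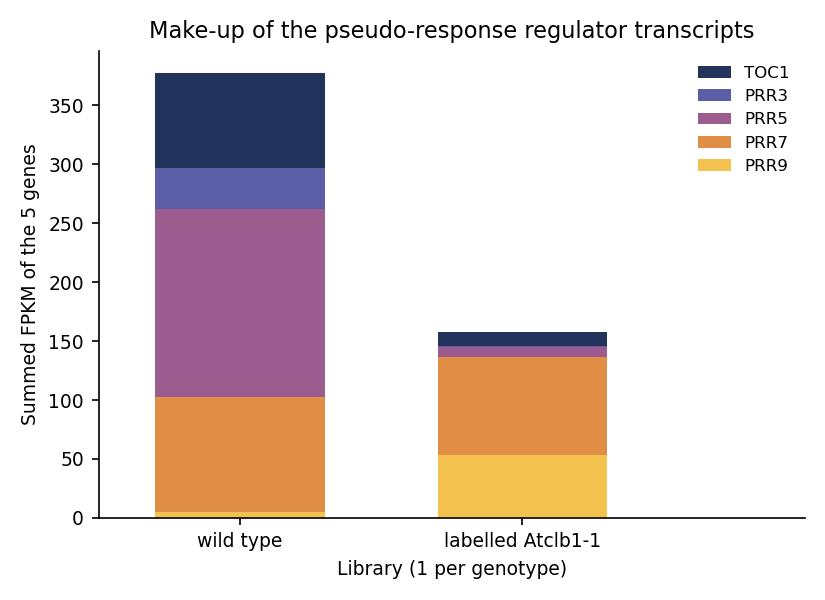
Stacked FPKM of the 5 genes in each library, 1 library per genotype, with the earliest gene at the bottom. The wild type bar reaches 378 FPKM and is mostly PRR5, PRR7 and TOC1, and the bar of the library labelled Atclb1-1 reaches 158 FPKM and is mostly PRR7 and PRR9.

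Ratios between members within a library do not depend on how the libraries were scaled to each other. The ratio of PRR9 to TOC1, the opposite ends of the wave, was 0.0627 in the wild type library against 4.45 in the library labelled Atclb1-1, a 70.9-fold difference. PRR9 relative to PRR5 was 0.0314 and 6.04, and PRR7 relative to PRR5 was 0.607 and 9.30. Among the 3 later genes, PRR5 relative to TOC1 was 2.00 in the wild type library against 0.736 in the library labelled Atclb1-1, PRR5 relative to PRR3 was 4.59 and 18.5, and PRR3 relative to TOC1 was 0.434 and 0.0398.

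The genes that act on PRR promoters were read next, from lists chosen with earlier results of these data known. The MYB factors CCA1 and LHY repress PRR5 and TOC1 through the evening element, and their relatives RVE4, RVE6 and RVE8 activate them through the same word. Of these 5 factors 4 were 2-fold or more higher in the library labelled Atclb1-1 and none lower, beside 17.2% higher and 10.8% lower over all loci, and their median difference was 3.57. The repressor CCA1 was at 7.39 and 162 FPKM, and LHY at 3.41 and 74.0 FPKM. Activators were higher as well, RVE8 at 3.89 and 57.1 FPKM and RVE4 at 26.3 and 77.2 FPKM, while RVE6 was at 9.19 and 16.3 FPKM. PRR5 and TOC1 were low in the library in which both their repressors and RVE8 were high, and a link between these levels was not tested.

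The LNK proteins are coactivators that RVE8 brings to PRR5 and TOC1. All 4 LNK genes were 2-fold or more higher, beside 17.2% of all loci, LNK3 at 13.6 and 168 FPKM, LNK4 at 5.72 and 69.8 FPKM, LNK1 at 30.6 and 145 FPKM and LNK2 at 33.4 and 157 FPKM. LWD1, LWD2 and bZIP63, which also activate PRR genes, made up the rest of that list of 7, and none of them reached 2-fold.

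The evening complex of ELF3, ELF4 and LUX represses PRR9 and PRR7 at night. All 4 of its genes, the LUX relative BOA included, were 2-fold or more lower, beside 10.8% of all loci, and their median was -3.28; with a pseudocount of 5 the count was 3 of 4. ELF4 stood at 343 and 4.95 FPKM, LUX at 56.6 and 1.05 FPKM, ELF3 at 29.7 and 8.12 FPKM, and BOA at 2.16 and 0.0759 FPKM. PRR9 was high in the library in which its night repressors were low, and PRR7, also a target of the complex, differed little. Whether these levels are linked was not tested. COR27 and COR28, which associate with the chromatin of PRR5 and TOC1, were lower too, COR27 at 173 and 0.343 FPKM and COR28 at 130 and 0.742 FPKM.

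**Figure D4:**
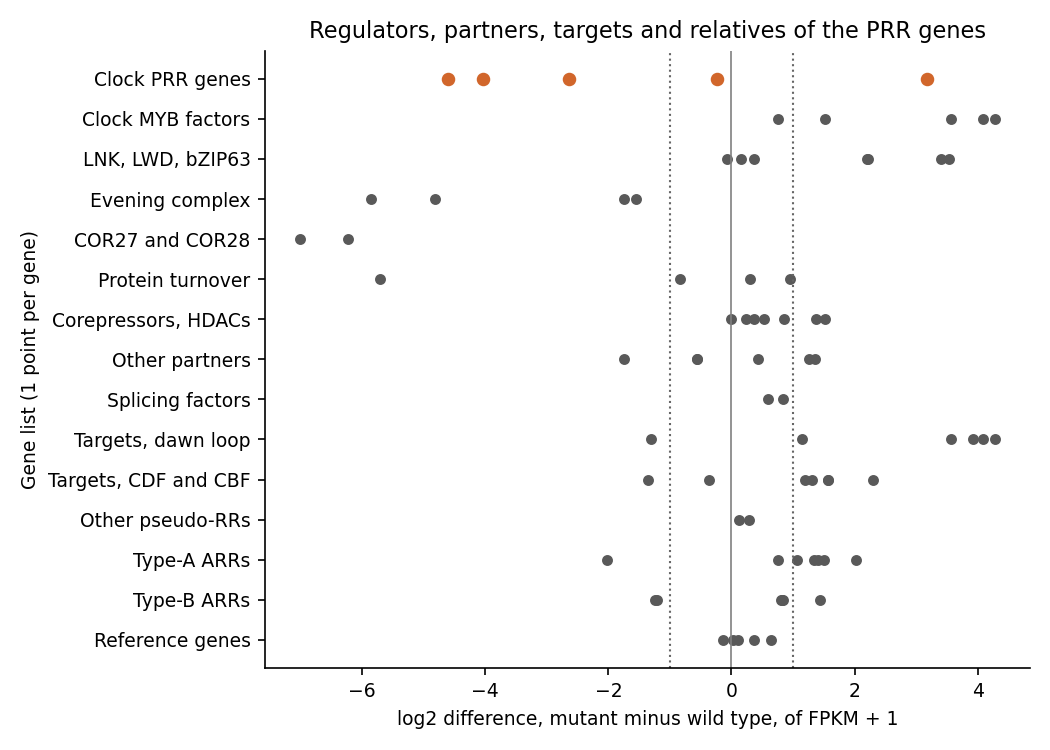
Log2 difference of FPKM + 1, mutant minus wild type, for the 5 clock PRR genes (top row, larger points) and for genes tied to them, with 1 point per gene that reached 1 FPKM in either library and dotted lines at 2-fold. The clock MYB and LNK genes lie to the right, the evening complex and COR27 and COR28 to the left, and the PRR genes themselves are spread over both sides.

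Genes for proteins that act on PRR proteins were less uniform. ZTL, FKF1 and LKP2 are blue-light F-box proteins that send TOC1 and PRR5 to degradation, and GI stabilises ZTL. Of these 4 only FKF1 was past 2-fold, lower at 78.9 and 0.526 FPKM, beside 10.8% lower and 17.2% higher over all loci. With the same nuclear total in both libraries, 1 of the 4 was also 2-fold higher. ZTL was at 19.5 and 38.7 FPKM, just inside the threshold, LKP2 at 11.5 and 14.4 FPKM and GI at 61.9 and 34.0 FPKM. The TOPLESS corepressors are recruited by PRR5, PRR7 and PRR9. With the histone deacetylase genes HDA6 and HDA19 they make a list of 7, of which 2 were 2-fold or more higher, beside 17.2% of all loci, and none lower. These were TPL at 18.9 and 56.0 FPKM and TPR4 at 14.8 and 40.2 FPKM, and neither was past 2-fold once length and GC medians were removed. TPR2 was at 15.2 and 28.4 FPKM and HDA6 at 14.5 and 21.5 FPKM.

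CHE, a TCP factor that binds TOC1 and the CCA1 promoter, was 3.51-fold lower at 51.4 and 14.7 FPKM. In the list of 6 partners it shares with the phytochrome-interacting factors, PIF5 was higher at 48.9 and 126 FPKM and PIF3 at 4.90 and 13.1 FPKM. PIF7 was at 27.7 and 18.5 FPKM. The splicing factors PRMT5 and SKIP, which act on PRR9 and PRR7 transcripts, were under 2-fold, PRMT5 at 7.24 and 13.7 FPKM and SKIP at 41.3 and 62.7 FPKM.

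Known targets of PRR repression were mostly higher in the library labelled Atclb1-1. Of 6 genes of the dawn loop 5 were 2-fold or more higher and 1 lower, beside 17.2% and 10.8% of all loci, and their median was 3.75. With a pseudocount of 5 the counts were 4 and 0. Besides CCA1, LHY and RVE8 these were RVE1, a link from clock to auxin, at 1.62 and 38.8 FPKM, and RVE7 at 1.90 and 5.39 FPKM. The exception, RVE2, was named after its value was seen and stood at 13.1 and 4.73 FPKM. CCA1, LHY and RVE8 are also in the list of MYB factors, so the lists overlap.

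Of 7 output genes bound by PRR proteins 5 were 2-fold or more higher and 1 lower, beside 17.2% and 10.8% of all loci, with a median of 1.31. The 4 genes of the CYCLING DOF FACTOR family in that list, which delay flowering, were each on the higher side, among them CDF2 at 2.50 and 16.2 FPKM and CDF3 at 38.0 and 115 FPKM. The cold regulators of the CBF family were split, with CBF2 higher at 12.9 and 40.2 FPKM, CBF3 lower at 52.0 and 19.6 FPKM, and CBF1 at 23.2 and 17.9 FPKM. These 3 genes lie in tandem and are close in sequence, so the authors' counting could have divided reads among them, which was not tested.

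Other genes with a receiver or pseudo-receiver domain did not share one direction. Of 4 pseudo-response regulators outside the clock, PRR4 and PRR6 were listed at 0 in both libraries. APRR2 was at 19.1 and 23.5 FPKM and PRR8 at 5.40 and 6.02 FPKM. Among 7 measured type-A response regulators, negative regulators of cytokinin signalling, 5 were 2-fold or more higher and 1 lower, beside 17.2% and 10.8% of all loci, and their median was 1.34. With a pseudocount of 5 the counts were 2 and 1. ARR9, which is known to be clock-controlled, stood at 4.82 and 22.8 FPKM, ARR6 at 1.97 and 7.42 FPKM and ARR8 at 4.13 and 12.6 FPKM. The lower one was ARR16 at 53.4 and 12.3 FPKM. Of 6 measured type-B regulators, the transcription factors of the cytokinin pathway, 1 was higher and 2 were lower, beside 17.2% and 10.8% of all loci, and with a pseudocount of 5 none was past 2-fold. They were ARR2 at 4.11 and 12.9 FPKM, ARR14 at 6.76 and 2.28 FPKM and ARR11 at 1.98 and 0.285 FPKM. ARR12 was at 8.95 and 16.7 FPKM.

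PRR9 and PRR7 each lie near a clock MYB gene. CCA1 begins 10411 bases after the end of PRR9, on the same strand with 3 loci of the table between them, and RVE4 begins 6617 bases from PRR7. All 5 members are protein-coding, with longest transcripts of 1677 to 3232 nt in 6 to 9 exons, and no other annotated gene overlapped any of them in TAIR10.1. To see whether whole neighbourhoods differed, 3 loci on either side of each member were read, 30 in all. Of the 19 that reached 1 FPKM in a library, 14 were within 2-fold on the log2(FPKM + 1) scale, 2 were higher and 3 lower, beside 17.2% and 10.8% of all loci. Among the 14 were low genes past 2-fold by plain FPKM ratio. AT2G46780, next to PRR9, was 3.39-fold lower at 2.16 and 0.637 FPKM. AT5G61350, near TOC1, was 4.07-fold higher at 0.375 and 1.53 FPKM. Near PRR3 the only neighbour that reached 1 FPKM was TOE2, within 2-fold at 5.11 and 6.83 FPKM, so that neighbourhood was hardly measured. The measured neighbours of PRR7 were within 2-fold, save GSTL1, a glutathione transferase gene, at 1.51 and 16.6 FPKM.

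The measured locus AT5G61390, only 4 bases past the end of TOC1 and on the opposite strand, was at 4.34 and 4.99 FPKM. Beside PRR9, ZAT, which encodes a zinc transporter and starts 194 bases past PRR9 on the same strand, was 2.31-fold higher at 16.9 and 39.1 FPKM. Between ZAT and CCA1, PSI-P was 2.30-fold lower at 2647 and 1149 FPKM, so the segment from PRR9 to CCA1 held differences of both signs. Near PRR5, AT5G24490 was 9.08-fold lower at 394 and 43.4 FPKM, with 7054 bases between the genes, and the locus next to PRR5 on the other side, AT5G24460, was at 56.7 and 66.5 FPKM. Near TOC1, AT5G61360 was lower at 10.5 and 2.63 FPKM.

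**Figure D5:**
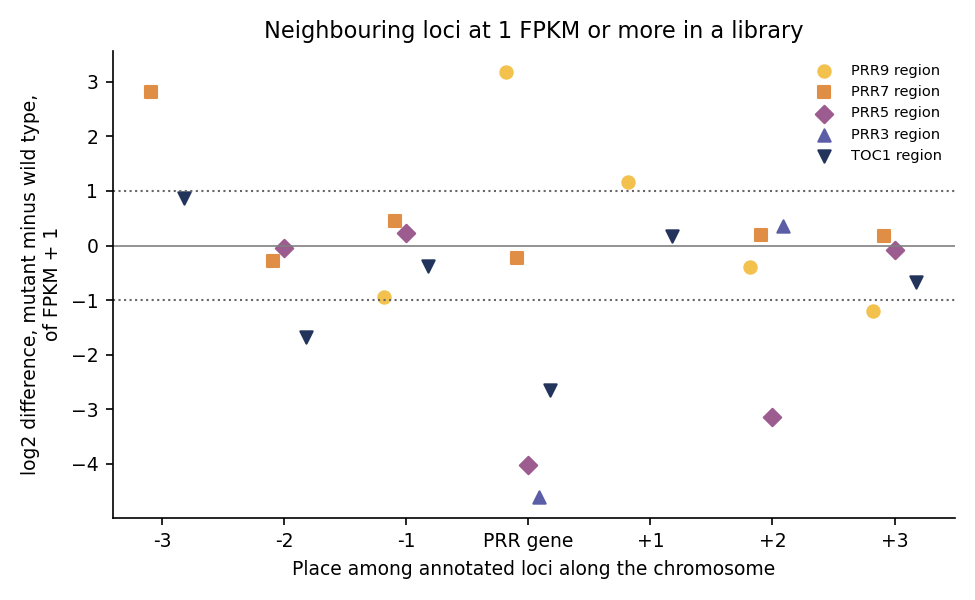
Log2 difference of FPKM + 1, mutant minus wild type, for each PRR gene and for up to 3 loci of the table on either side of it that reached 1 FPKM in a library, with dotted lines at 2-fold. Most neighbours lie between the dotted lines while 4 of the 5 PRR genes lie outside them.

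The loci nearest to each member were found by the distance between pairs of log2(FPKM + 1) values, over no more than the 2 libraries. For PRR3 they were AT1G17665 at 44.1 and 0.379 FPKM and PORA, a protochlorophyllide reductase gene, at 32.9 and 0.918 FPKM, at distances of 0.345 and 0.383. For TOC1 they were AT1G71695 and AMI1, at distances of 0.069 and 0.098. For PRR9, PRR7 and PRR5 the nearest were AT4G00700, AT3G56020 and AT5G62720, at distances of 0.072, 0.022 and 0.188, followed by AT1G70000, PAA2 and AT2G27385 at 0.108, 0.041 and 0.201. PRR3 was the member with the farthest nearest locus.

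Checks of the libraries were as follows. AtCLB was at 39.2 FPKM in the wild type library and 13.5 FPKM in the library labelled Atclb1-1, 2.90-fold lower but present, and the genotype is given as labelled. None of 5 reference genes, ACT2, UBQ10, PP2AA3, TIP41L and EF1A, reached 2-fold, and their median was 0.11. Mesophyll markers summed to 29135 and 19505 FPKM, with 1 of 4, RBCS1A, 2-fold or more lower. Guard cell markers summed to 175 and 71.9 FPKM, with 2 of 3 lower and 1 higher. The higher one was not past 2-fold once length and GC medians were removed. Both epidermis markers were lower, with sums of 13.1 and 3.64 FPKM and PDF1 at 0 in the library labelled Atclb1-1. With a pseudocount of 5, 1 of 3 guard cell markers was lower and no epidermis marker was past 2-fold. Beside these marker counts, 10.8% of all loci were lower and 17.2% higher. All 3 seed markers were listed at 0 in both libraries, and so was CASP1, a marker of the root endodermis. Of the other root markers, SCR, which leaves also express, was present in both libraries, 1.72-fold higher in the one labelled Atclb1-1 at 17.3 FPKM, and PHT1;1 was at 0 and 0.301 FPKM. The 3 flower markers summed to 1.51 and 2.19 FPKM. Of the 2 that reached 1 FPKM, PI was higher at 0.0635 and 1.36 FPKM and AG was within 2-fold at 1.38 and 0.821 FPKM. With a pseudocount of 5 neither was past 2-fold. The part of these markers in the PRR values was not tested.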

How the data were processed

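Leaf RNA from 1 wild type and 1 Atclb1-1 sample was sequenced with a directional Illumina kit, per the labels' protocols. The values are FPKM, deposited by the authors with that unit named per the file headers. Per the submitters' processing notes, the tools were TopHat 1.3.2 and Cuffdiff and the build was TAIR10; parameters, annotation release, strand setting and filters were not given in the sources used here. Because FPKM is relative to the mapped total, abundant loci can shift every other value.

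Differences were log2((mutant FPKM + 1)/(wild type FPKM + 1)), which understates those of low genes; folds for single genes are plain FPKM ratios. Loci that reached 1 FPKM in either library were kept, and 2-fold on the log2 scale was the threshold. No test was possible. The functions were run on simulated data without noise, made from values of 5 FPKM or more, which checks the code and not the calls of low genes. Depth was read from the most frequent product of FPKM and TAIR10.1 transcript length among low values, 0.065 to 0.07 for wild type, against 0.055 to 0.06 for the library labelled Atclb1-1. It implies roughly 14300000 to 15400000 and 16700000 to 18200000 mapped fragments. Fragments per gene were not recovered exactly, so no counting interval is given.

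Coordinates, transcript lengths, promoters and symbols came from TAIR10.1, whose locus identifiers matched those of the members. The named genes are the 5 members, AtCLB, all members of lists of up to 5 genes tied to the PRR genes, the 4 largest differences of longer lists, 3 neighbours on either side and the 2 nearest loci; of the marker and reference lists, and of the neighbours, only some are named, and others, RVE2, RVE7 and CBF1 among them, were named after their values were seen. Members, lists and motifs were chosen with earlier results of these data known. Alternatives were pseudocounts of 0.1 and 5, a median ratio of 0, the same nuclear total, no filter, a filter at 5 FPKM and a 4-fold threshold; removal of medians in 20 length bins and 10 GC bins was added after the data had been seen. Python 3.11.15, numpy 2.4.6 and pandas 2.3.3 were used.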

Additional observations from a re-analysis of the deposited data

How the results depend on the processing

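Across 9 alternative settings 198 values were recomputed; 180 stayed within 1.5-fold of the reported value, 18 moved further and none past 2-fold changed sign. The counts of 3 members lower and 1 higher held under every setting. Pseudocounts of 0.1 and 5 moved the log2 difference of PRR3 to -5.91 and -2.86, and a pseudocount of 5 moved that of PRR9 to 2.55. With a pseudocount of 5, the loci past 2-fold were 1774 higher and 1058 lower, and the 4-fold threshold left 961 and 480. A pseudocount of 5 moved the list medians to 2.80 for the clock MYB factors, -2.37 for the evening complex, -4.80 for COR27 and COR28, 2.76 for the dawn-loop targets and -0.79 for the epidermis markers. A pseudocount of 0.1 moved them to -4.65 for the evening complex, -7.94 for COR27 and COR28, -3.36 for the epidermis markers and 1.24 for the flower markers. A filter at 5 FPKM, which left fewer genes, gave -4.81 for the evening complex and -1.06 for the epidermis markers. Signs of small list medians changed 5 times: for the reference genes with the median ratio at 0 and after length and GC medians were removed (both -0.09), for the pseudo-response regulators outside the clock after that removal (-0.23), for the TOC1 partners with the same nuclear total (0.03) and for the flower markers with no filter (-0.09). Setting the median ratio to 0 took 0.21 off the log2 ratio of plain FPKM, and less from low genes on the reported scale. In that setting 4 dawn-loop targets and 4 type-A regulators, in place of 5 each, were 2-fold higher. Protein turnover genes 2-fold lower were 2 in place of 1. The same counts were found once length and GC medians were removed. After that removal 1 TOC1 partner in place of 2 was higher, as with a pseudocount of 5. With a pseudocount of 5, 2 type-A regulators in place of 5 were higher, and no type-B regulator was past 2-fold. A larger pseudocount shrinks log2 differences by its formula, most for low genes, and a 4-fold threshold calls fewer loci by definition. The cause of the other moves, beyond the fewer genes of the filter, was not tested. No paired analysis was possible because each genotype has 1 library. Depth limits mainly PRR3, on roughly 22 to 24 fragments in the library labelled Atclb1-1; the other values have no replicate to give their spread.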
